A study of Mus musculus with 6 samples.

Results

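A set of 1598 genomic regions carried a called estrogen receptor alpha (ERα) peak in vehicle-treated uterus and no called peak after fulvestrant or tamoxifen in either genotype. They were found by merging the peaks of the 6 deposited lists wherever they overlapped by at least 1 bp, which gave 65146 regions. The members were chosen by the peak calls themselves: a peak in the wild-type vehicle list (WT Veh), the mutant vehicle list (Af2KI Veh) or both, and none in WT ICI, WT Tam, Af2KI ICI or Af2KI Tam. Vehicle-only regions made up 2.45% of all merged regions and 20.9% of the 7643 regions with a vehicle peak. Both shares follow from the rule and are a description.

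The libraries came from ovariectomized 12-week-old C57BL/6J females, either wild type or littermates carrying a mutation in ERα activation function 2 (AF2ERKI, here Af2KI). Mice were given an intraperitoneal injection of fulvestrant (ICI182780, ICI) at 2 mg/kg, tamoxifen (Tam) at 2 mg/kg, both dissolved in DMSO, or 50 µl of DMSO as the vehicle (Veh), and uteri were taken 1 h later. All 6 groups thus shared ovary removal and exposure to DMSO, and each was 1 library made with antibody SC-542 from the whole uteri of 6 pooled mice, so the cell types of the organ are mixed. An unexplained code, E1h, stands in every sample title and was not interpreted.

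ERα is a nuclear receptor that binds DNA as a dimer, typically at estrogen response elements, or is tethered there by other factors. Estrogen from the ovary raises its occupancy and drives growth and secretion in the uterus. Without that hormone a smaller number of sites is still occupied, since the receptor resides in the nucleus also when it is not bound by estrogen. Fulvestrant is a steroidal antagonist that also lowers receptor levels, and tamoxifen is an antagonist in breast and a partial agonist in uterus. AF-2 is the coactivator-binding surface of the ligand-binding domain, shaped by its last helix. A vehicle-only region is defined by calls alone: it passed the threshold in a vehicle library and in none of the ligand libraries.

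The lists held 3712 peaks for WT Veh, 5027 for Af2KI Veh and 26482 to 45837 for the ligand libraries, each peak 200 bp wide with no measure of height. No list held a peak on chromosome Y, and the labels give female mice. A group had a single library, so nothing measures the spread between pools, and no difference given here was tested. Ranges in parentheses after a share are exact 95% binomial limits (Clopper-Pearson) and reflect counting error alone. Read depth is unknown, so a region missing from a list may hold binding under the threshold. All positions are in mm9 and count from 1. No sequence or gene annotation of mm9 was used here, so sites are given by position and genes are not named.

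The mutant vehicle library supplied most of the members. Of the 1598 regions, 1198 held a peak of Af2KI Veh alone, which is 75% of them (72.8 to 77.1). WT Veh alone held 304, or 19% (17.1 to 21.0), and both vehicle lists held 96, or 6.0% (4.89 to 7.29). Among all regions with a WT Veh peak, 10.8% had no ligand peak of either genotype (400 of 3712). Among all regions with an Af2KI Veh peak the share was 25.7% (1294 of 5027). The mutant list thus had the larger share outside the ligand lists, although it is also the longer vehicle list and the ligand lists of both genotypes were used.

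**Figure D1:**
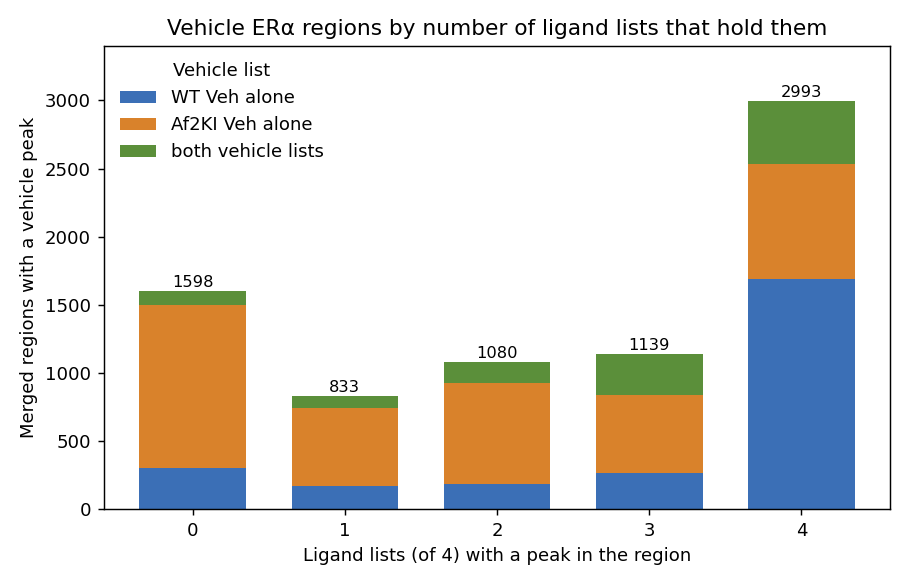
Merged regions with a vehicle peak, by the number of ligand lists that also hold a peak there (x axis); the y axis and the number on each bar count regions, and colours show which vehicle list holds them. The vehicle-only regions are the bar at 0 with 1598 regions, fewer than the 2993 regions at 4 and more than the bars at 1 to 3.

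Vehicle regions were most numerous at all 4 ligand lists and next at none, as the plot of regions by ligand lists shows. Next to the 1598 regions with no ligand list stood 833 with exactly 1, 1080 with 2, 1139 with 3 and 2993 with all 4. Among all merged regions, 22525 held exactly 1 ligand list, 14571 held 2, 11308 held 3 and 15144 held all 4. A merged region with no ligand list always holds a vehicle peak, so the class at 0 has no such background. Regions of WT Veh alone were concentrated in the last class, with 1691 of them in all 4 ligand lists. Regions of Af2KI Veh alone were most numerous at 0 ligand lists, with 1198, against 843 at 4. Those of both vehicle lists numbered 96 at 0, 91 at 1, 152 at 2, 298 at 3 and 459 at 4.

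Sharing between the vehicle libraries took a different course in each genotype. Of the 400 vehicle-only regions with a WT Veh peak, 24.0% also held an Af2KI Veh peak (19.9 to 28.5). For WT Veh regions that a ligand list did hold, the share was 30.2% (28.6 to 31.8). Of the 1294 vehicle-only regions with an Af2KI Veh peak, 7.42% also held a WT Veh peak (6.05 to 8.98), against 26.8% (25.4 to 28.2) where a ligand list held the region. The mutant's share was higher where more ligand lists held the region, at 13.8% with 1 list, 16.9% with 2, 34.1% with 3 and 35.3% with 4. In the wild type it was 34.5% at 1 list, 45.5% at 2, 52.8% at 3 and 21.3% at 4, the last close to the 24.0% of the vehicle-only regions. In the mutant vehicle list the vehicle-only regions thus had the lowest share of calls in the other genotype, and in the wild-type list the regions of all 4 ligand lists did.

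Where both vehicle libraries called a vehicle-only region, they placed the peak at nearly the same position. By the rule the 2 peaks of such a region overlap, so midpoints under 200 bp apart were fixed in advance. The midpoints of the WT Veh and Af2KI Veh peaks lay a median of 17 bp apart in these 96 regions, with the middle 50% of values between 7.75 and 45 bp. In the 1000 regions of both vehicle lists that a ligand list held, the median was 19 bp (8 to 41). There a ligand peak can join vehicle peaks that do not overlap, so the limit of 200 bp does not apply. The largest offset among them was 277 bp, and the sets are not under like constraints. Midpoints lay within 50 bp of each other in 77.1% of the vehicle-only regions (67.4 to 85.0) and in 81.0% of the others (78.4 to 83.4), so these intervals overlap. Near misses between the vehicle lists were few: 17 of the 304 regions of WT Veh alone had an Af2KI Veh peak within 1 kb, and 25 of the 1198 regions of Af2KI Veh alone had a WT Veh peak within 1 kb.

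The requirement that ligand lists of both genotypes be empty mattered more for the wild type. Of the WT Veh regions, 643 had no WT ICI or WT Tam peak, and 243 of these (37.8%, 34.0 to 41.7) held an Af2KI ligand peak and were therefore not members. Of the Af2KI Veh regions, 1487 lacked both mutant ligand lists, and 193 of these (13.0%, 11.3 to 14.8) held a wild-type ligand peak. The mutant ligand lists are together the longer ones. Calls of the other genotype's ligand lists were more common among vehicle peaks at large. Of the 3712 WT Veh peaks, 2874 overlapped an Af2KI ICI peak and 2829 an Af2KI Tam peak. Of the 5027 Af2KI Veh peaks, 2208 overlapped a WT Tam peak and 1695 a WT ICI peak. The converse case, a ligand peak of the same genotype only, held for 253 WT Veh regions, or 6.82% (6.03 to 7.67), and 1147 Af2KI Veh regions, or 22.8% (21.7 to 24.0).

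Just outside the rule lay the 833 regions with a vehicle peak and exactly 1 ligand list. Af2KI ICI was the lone ligand list in 277 of them, Af2KI Tam in 274, WT Tam in 145 and WT ICI in 137. A mutant ligand list thus held 66.1% (62.8 to 69.4), against 52.8% of the 21692 regions with exactly 1 ligand list and no vehicle peak. Regions of Af2KI Veh alone paired with Af2KI ICI in 224 cases and with Af2KI Tam in 209, and with WT ICI or WT Tam in 74 and 62. Regions of WT Veh alone paired with WT Tam in 65 cases and WT ICI in 54, and with Af2KI Tam or Af2KI ICI in 35 and 19. The mutant ligand lists held 76.1% of the lone calls at regions of Af2KI Veh alone (72.4 to 79.5) and 31.2% of those at regions of WT Veh alone (24.4 to 38.7), on either side of the 52.8%.

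At the edge of the rule, few vehicle peaks overlapped a ligand peak by a small margin. Of 8739 vehicle peaks, 7035 overlapped a ligand peak, by a median of 190 bp of the 200 bp. The largest overlap with a ligand peak was 151 to 200 bp for 5970 peaks, 101 to 150 bp for 678, 51 to 100 bp for 241 and 1 to 50 bp for 146. A further 108 peaks missed a ligand peak by 50 bp or less.

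Many members nevertheless lay beside a region that a ligand list held. Measured between facing edges, 295 of the 1598 members (18.5%, 16.6 to 20.5) had a ligand region within 200 bp, and 553 (34.6%, 32.3 to 37.0) within 1 kb. The median distance was 3646 bp. Members of WT Veh alone had a median of 2478 bp and 42.1% within 1 kb (36.5 to 47.9). Members of Af2KI Veh alone had a median of 4001 bp and 32.1% within 1 kb (29.4 to 34.8). Members of both vehicle lists had a median of 3724 bp, with 29.2% within 200 bp (20.3 to 39.3) and 42.7% within 1 kb (32.7 to 53.2).

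**Figure D2:**
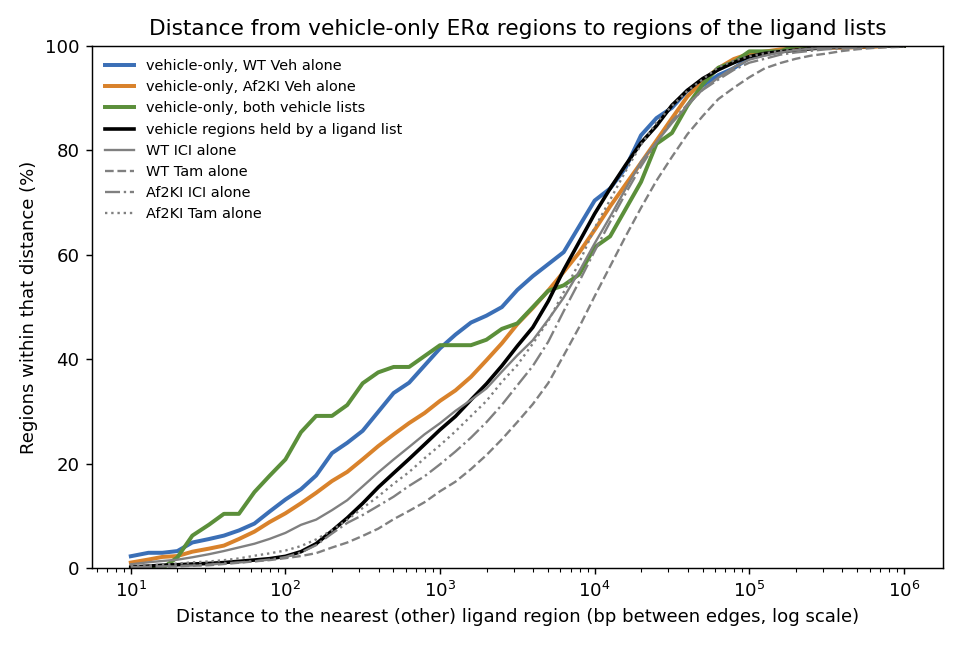
Cumulative share of regions (y axis, %) within a given distance of the nearest ligand region (x axis, bp between facing edges, log scale). Coloured lines are the 3 classes of vehicle-only regions, the black line the 6045 vehicle regions held by a ligand list (distance to the next ligand region), and grey lines the regions of 1 ligand list alone (distance to a region of another ligand list). At 200 bp the coloured lines stand at 16.7% to 29.2% and the others at 3.97% to 11.1%, and at 10 kb the coloured and black lines lie between 61.5% and 70.4%.

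Distances in other classes were also taken between facing edges, but not to the same targets. Members were measured to a region of any ligand list. Regions of a single ligand list were measured to a region of another ligand list. Ligand-held vehicle regions were measured to the next ligand region, their own left out. Fewer targets by themselves make the nearest distance longer, so the classes were not compared on equal terms. Regions held by a ligand list alone and in no vehicle list are cut out of the other lists in a like manner. Their share within 1 kb of a region of another ligand list was 27.8% for WT ICI (26.4 to 29.2), 23.6% for Af2KI Tam (22.1 to 25), 19.9% for Af2KI ICI (19 to 20.8) and 14.7% for WT Tam (13.9 to 15.7). Vehicle regions that a ligand list held had another ligand region within 1 kb in 26.5% of cases (25.4 to 27.6) and within 200 bp in 7.15% (6.51 to 7.82). Those held by exactly 1 ligand list came closest to the members, with 30.4% within 1 kb (27.3 to 33.6) and 12.8% within 200 bp (10.6 to 15.3). The interval at 1 kb overlaps that of the members' 34.6% (32.3 to 37.0). In a ligand-held region the overlapping ligand peaks are part of the region itself. A list already present there had no second peak with a midpoint under 261 bp away. The shares of held regions at short distances are thus limited in advance, in a way that those of the members are not. Within 10 kb the shares were 65.6% for the members (63.3 to 68.0) and 67.9% for the ligand-held vehicle regions (66.7 to 69.1). In the plot of cumulative distances, the curves of these vehicle regions part at 1 kb and below and meet near 10 kb.

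Neighbouring peaks of the same list were rarely this close together. The closest midpoints within any of the 6 lists lay 261 bp apart, and in the ligand lists 0.129% (WT ICI) to 1.36% (Af2KI ICI) of neighbouring peaks were under 400 bp apart. The midpoint of 108 members (6.76%, 5.58 to 8.10) lay under 261 bp from that of a ligand peak, closer than any 2 peaks of 1 list. For 291 members (18.2%, 16.3 to 20.2) it lay under 400 bp away. These shares and those within a list are not like measures. Members were compared with the nearest peak of all ligand lists together, and more peaks by themselves bring the nearest one closer. The lower limit on spacing seen within a list also does not apply between lists. The values thus do not show that members lay unusually close to ligand peaks. Counts fell quickly with distance: 182 members had their nearest ligand midpoint at 200 to 300 bp, 109 at 300 to 400 bp, 58 at 400 to 500 bp and 22 at 900 to 1000 bp. Whether the vehicle and ligand calls at such short distances mark the same binding event was not tested.

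**Figure D3:**
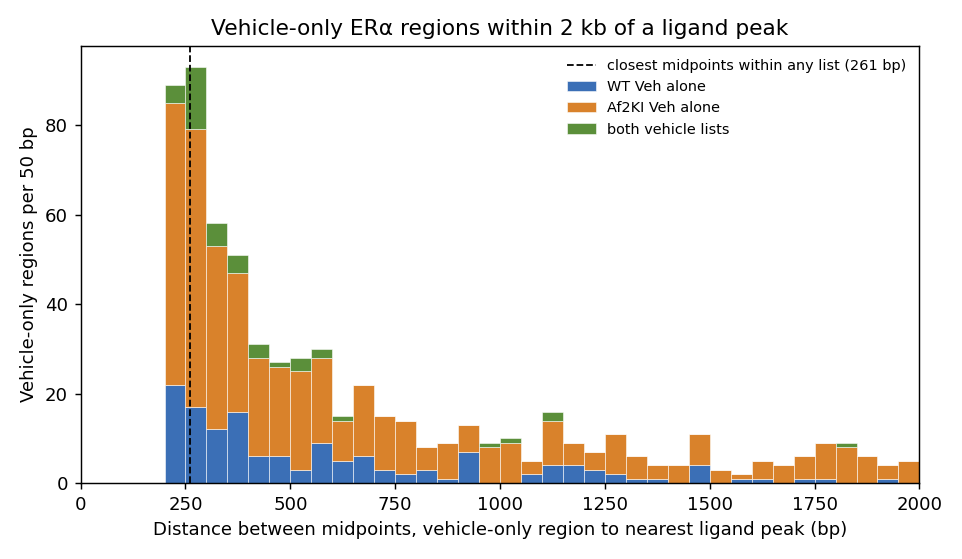
Vehicle-only regions by the distance from their midpoint to that of the nearest ligand peak (x axis, bp, up to 2 kb), counted per 50 bp (y axis) and coloured by vehicle list. No member lies below 200 bp, where 200 bp peaks would overlap, and the highest bars are the first 2, with 89 and 93 members; the dashed line at 261 bp, the closest spacing found within any list, falls inside the second.

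The ligand regions beside close members were often those of every ligand library. Of the 295 members with a ligand region within 200 bp, 134 (45.4%, 39.6 to 51.3) had a nearest one held by all 4 ligand lists, whereas 23.8% of all 63548 ligand regions were. Members can share a nearest region: these 295 had 292 distinct ones, of which 132 (45.2%) were held by all 4. For members between 200 bp and 1 kb from a ligand region the share was 22.5% (17.5 to 28.1), and beyond 10 kb it was 21.3% (18 to 25). Of the 432 ligand-held vehicle regions with another ligand region within 200 bp, 13.2% (10.1 to 16.8) had a nearest one held by all 4 ligand lists, but there the ligand lists had already placed a peak in the vehicle region itself. For 27 of the 295 members the nearest ligand region held a vehicle peak (9.15%, 6.12 to 13.0), and 9.51% of all ligand regions did. The other 268 members thus stood beside a ligand region with no vehicle call. The 2 shares are not like measures. A member is itself a vehicle peak, and midpoints within a list were at least 261 bp (Af2KI Veh) or 342 bp (WT Veh) apart. Of all 15144 regions of all 4 ligand lists, frequent among these neighbours, 2993 held a vehicle peak.

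Wild-type fulvestrant peaks were frequent among these neighbours. WT ICI held the nearest ligand region of 70.8% of the 295 members, and 41.7% of all ligand regions. The other lists differed less from their overall shares: Af2KI ICI held the nearest region of 74.9% of these members and 72.1% of all ligand regions, Af2KI Tam 69.5% and 57.5%, and WT Tam 59.0% and 58.7%. A region of all 4 ligand lists counts toward each list, so these shares are not independent of the frequency of such regions given above. Of the 41 members of both vehicle lists with a ligand region within 1 kb, 32 had a nearest one held by WT ICI. Where vehicle and ligand peaks did overlap, WT ICI peaks also sat farther from the vehicle midpoint. Af2KI Veh midpoints were a median of 45 bp from overlapping WT ICI midpoints and 26 to 27 bp from those of the other 3 ligand lists, and 21.0% of WT ICI overlaps were off by more than 100 bp (19.1 to 23.0), against 9.95% to 11%. For WT Veh the median was 19 bp with WT ICI and 14 bp with each of the others, and 7.08% (6.10 to 8.15) against 3.31% to 4.31% were off by more than 100 bp. The part of such offsets in the number of vehicle-only regions was not tested.

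The genotype of the nearest ligand call was compared with that of the member. Of the 128 members of WT Veh alone with a ligand region within 1 kb, 104 (81.2%, 73.4 to 87.6) had one held by WT ICI or WT Tam, a combination that held 70.3% of all ligand regions. Of the 384 members of Af2KI Veh alone, 320 (83.3%, 79.2 to 86.9) had one held by Af2KI ICI or Af2KI Tam, which held 80.3% of all ligand regions. The intervals of the wild-type and mutant members overlap each other and reflect counting error over regions of single libraries. WT ICI by itself had a larger share than its background in both classes. It held the nearest region of 66.4% of these wild-type members and 57% of these mutant members, against 41.7% of all ligand regions. WT Tam held no larger share in either class than its 58.7% of all ligand regions. Whether the excess of the wild-type members, 81.2% against 70.3%, reflects a match in genotype was not tested.

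Of the 1598 members, 1045 were more than 1 kb from any ligand region and 549 (34.4%, 32.0 to 36.7) more than 10 kb. Ligand-held vehicle regions were more than 10 kb from the next ligand region in 32.1% of cases, so a distance of this size was not particular to the members. The 549 comprised 422 regions of Af2KI Veh alone, 90 of WT Veh alone and 37 of both. The vehicle lists also shared some of these distant members. Of those beyond 10 kb with a WT Veh peak, 29.1% were also in Af2KI Veh (21.4 to 37.9), and of those with an Af2KI Veh peak 8.06% were also in WT Veh (5.74 to 10.9). Among the 1049 members within 10 kb the shares were 21.6% (16.9 to 27.0) and 7.07% (5.42 to 9.02), and these intervals overlap those of the distant ones.

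The 3 members of both vehicle lists farthest from a ligand region were looked up after their values were seen. On chromosome 7, the region at 69564982 to 69565184 held a WT Veh and an Af2KI Veh peak with midpoints 3 bp apart, and the nearest ligand region was 188244 bp away. A second one on chromosome 7, at 24960189 to 24960395, had midpoints 7 bp apart and no ligand region within 93826 bp. The third, on chromosome 1 at 163061572 to 163061775, had midpoints 4 bp apart and no ligand region within 91457 bp. All 3 had 0 ligand regions within 50 kb of their midpoint. In these places the vehicle pools of both genotypes gave a call at the same position and none of the 4 ligand pools gave one nearby.

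Single members lay at very different distances. These are the first 2 of each class along the chromosomes. The first of WT Veh alone, on chromosome 1 at 10029680 to 10029879, was 71298 bp from a region of all 4 ligand lists. The second, at 34068280 to 34068479, was 57 bp from a region of all 4 ligand lists that lay at 34068002 to 34068222 and held no vehicle peak. Among regions of Af2KI Veh alone, that at 4416945 to 4417144 was 66 bp from a peak of Af2KI ICI alone, whereas that at 4483712 to 4483911 was 55927 bp from a region of all 4 ligand lists. Among regions of both vehicle lists, that at 63223474 to 63223676 was 111 bp from a region of all 4 ligand lists, and that at 72077416 to 72077621 was 25 bp from a peak of WT ICI alone. Of these 6 sites, 4 thus lay within 200 bp of a ligand call, whereas 295 of all 1598 members (18.5%) did.

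The closest and the farthest members mark the limits. The closest, a WT Veh peak on chromosome 1 at 161752641 to 161752840, touched a region of all 4 ligand lists with 0 bp between them and did not overlap it. The next 2 were 1 bp from a ligand region: a WT Veh peak on chromosome 1 at 88275117 to 88275316, beside a region of Af2KI ICI and Af2KI Tam, and an Af2KI Veh peak on chromosome 8 at 106600786 to 106600985, beside a region of all 4. None of these 3 neighbours held a vehicle peak. The farthest members were 3 regions of Af2KI Veh alone. They lay on chromosome 12 at 18616653 to 18616852, with 735801 bp to a WT ICI peak, on the X chromosome at 119510719 to 119510918, with 706031 bp to a region of all 4 ligand lists, and on an unplaced contig (chrUn_random), with 526498 bp to an Af2KI ICI peak. Distances on unplaced contigs have no meaning in the genome, since pieces are joined there in no known order.

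Few members lay close to another member. Neighbouring members lay a median of 681209 bp apart, and 15 of the 1577 neighbouring pairs were within 1 kb of each other. In windows of 100 kb laid end to end, 1348 windows held 1 member, 111 held 2, 8 held 3 and 1 held 4. Windows with at least 2 members contained 15.6% of the members (13.9 to 17.5). For vehicle regions held by a ligand list that share was 37.8% (36.6 to 39.0), a set of 6045 regions against 1598, and a larger set by itself puts more regions into shared windows.

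**Figure D4:**
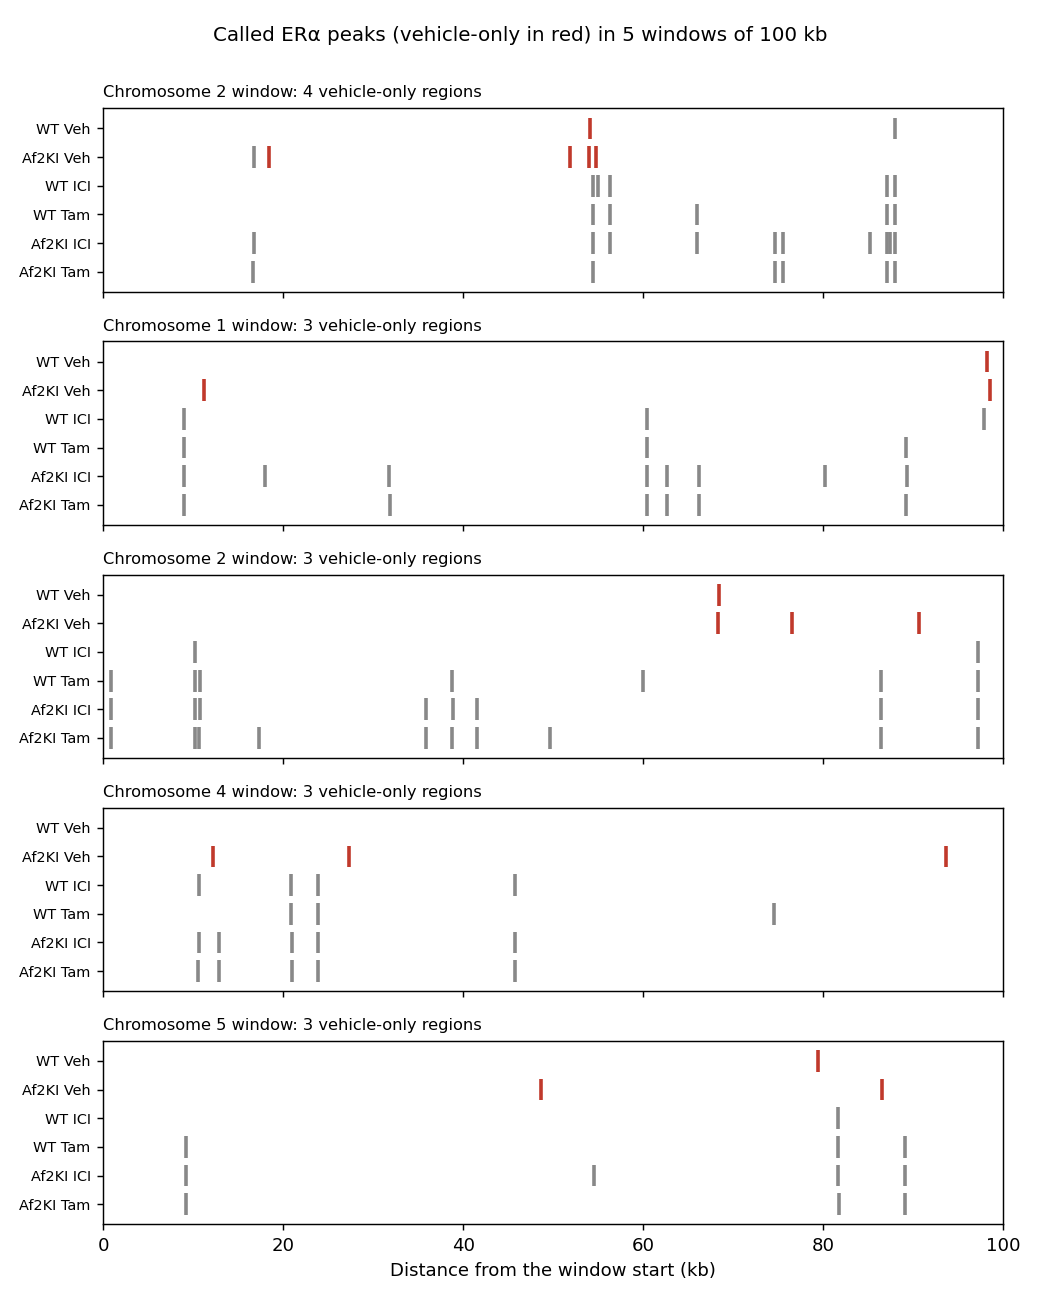
Called peaks of the 6 lists (rows) in the 5 windows of 100 kb named in the text, against the distance from the window's start (x axis, kb). Each tick is the midpoint of 1 peak, red for vehicle-only regions and grey for all others. In each window the red ticks lie in gaps or at the sides of grey columns, and every window also holds ligand peaks.

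The window with 4 members was on chromosome 2 at 153300001 to 153400000. It held 3 regions of Af2KI Veh alone and 1 of both vehicle lists, among 11 ligand regions, of which 2 held a vehicle peak. The first member, an Af2KI Veh peak at 153318291 to 153318490, was 1417 bp from a region of Af2KI ICI and Af2KI Tam that held one of these vehicle peaks. The other 3 members lay around a single region of all 4 ligand lists at 153354285 to 153354550. The region of both vehicle lists, at 153353858 to 153354136, was 148 bp from it, and an Af2KI Veh peak at 153351716 to 153351915 was 2369 bp from it. A further Af2KI Veh peak at 153354644 to 153354843 lay on its other side, 33 bp from a peak of WT ICI alone at 153354877 to 153355076. Vehicle calls thus flanked a ligand region that itself had no vehicle call, as the map of windows shows.

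Windows with 3 members numbered 8, and the first 4 of them along the genome are given. On chromosome 1 at 94900001 to 95000000, a WT Veh peak at 94998096 to 94998295 and an Af2KI Veh peak at 94998421 to 94998620 did not overlap but lay close together. They were 133 bp and 458 bp from a peak of WT ICI alone. On chromosome 2 at 32500001 to 32600000, 1 region of both vehicle lists (32568220 to 32568491) and 2 of Af2KI Veh alone were 4001 to 9636 bp from ligand regions, of which the window held 11, none with a vehicle peak. On chromosome 4 at 11800001 to 11900000, all 3 members were of Af2KI Veh alone, 414 to 9185 bp from ligand regions, and WT Veh had 0 peaks in the window. On chromosome 5 at 115800001 to 115900000, 1 member of WT Veh alone and 2 of Af2KI Veh alone were 2031 to 5670 bp from ligand regions. In these 4 windows no ligand region held a vehicle peak, so every vehicle call there was a vehicle-only one.

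The surroundings of members held about as many ligand regions as those of other sites. Within 50 kb of a member's midpoint there was a median of 4 ligand regions, with the middle 50% of values between 2 and 7. Vehicle regions held by a ligand list had a median of 5 others (2 to 8), and so did ligand regions with no vehicle peak (3 to 8). No ligand region lay within 50 kb of 111 members (6.95%, 5.75 to 8.30), against 6.35% (5.75 to 7) of the ligand-held vehicle regions.

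By chromosome, the share of vehicle regions with no ligand peak ran from 16.3% on chromosome 12 (12.5 to 20.8) to 27.0% on the X chromosome (21.0 to 33.7), with a median of 21.3%. For regions with an Af2KI Veh peak it ran from 19.7% on chromosome 8 (15.5 to 24.6) to 29.9% on chromosome 9 (24.5 to 35.6), and the X chromosome, at 28.4% (21.1 to 36.6), fell within the range of the autosomes. For regions with a WT Veh peak it ran from 7.46% on chromosome 16 (3.64 to 13.3) to 20.7% on the X chromosome (12.9 to 30.4), where 19 of 92 regions were members, and 10.5% over chromosomes 1 to 19 (9.54 to 11.6). The X chromosome held 54 members, 3.38% of the total (2.55 to 4.39), against 2.42% of vehicle regions held by a ligand list (2.04 to 2.83) and 2.13% of all regions. The wild-type value is the highest of 20 chromosomes and rests on 19 regions of 1 library, and it was not tested.

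**Figure D5:**
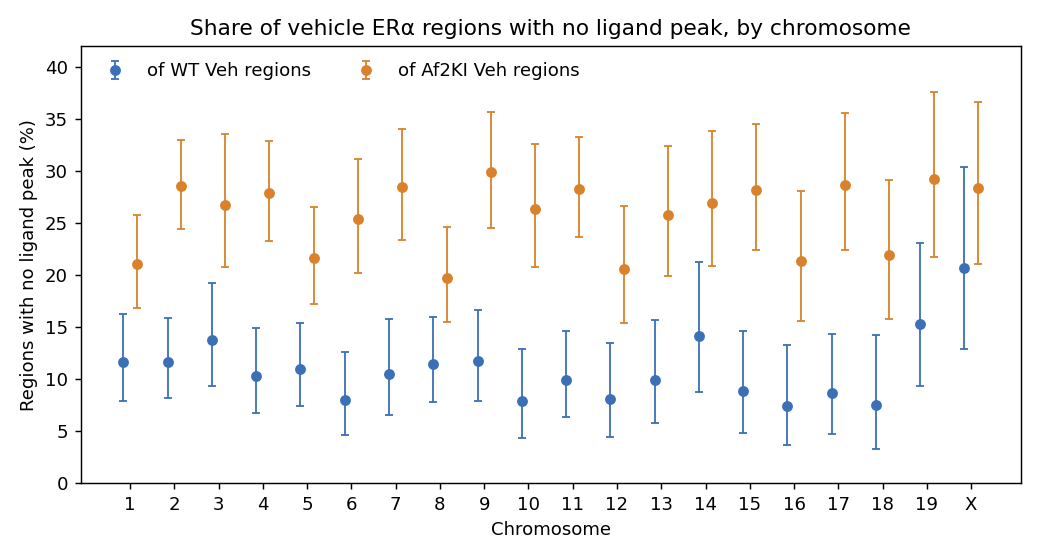
Share of vehicle regions with no ligand peak (y axis, %) on each chromosome (x axis), for regions with a WT Veh peak (blue) and with an Af2KI Veh peak (orange); bars are exact 95% binomial intervals for counting error. The mutant points lie above the wild-type points on every chromosome, and the highest wild-type point is the X chromosome at 20.7%.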

How the data were processed

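ERα ChIP-seq peaks were analysed in 6 libraries, 1 for each combination of genotype and treatment. The submitters' processing notes name build mm9 and, without roles, HOMER 4.10.3, Bowtie2 2.1.0, bedtools 2.24.0, Picard and SAMtools. The sources used here do not give the calling threshold or any use of an input library for calling. The deposited values are positions only (chromosome, start, end and a name that repeats them), and every peak was 200 bp wide. Peak number, and with it membership, depends on depth and threshold, which are unknown.

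Peaks were merged with pandas 2.3.3 and numpy 2.4.6 under Python 3.11.15, intervals computed with scipy 1.17.1 and plots drawn with matplotlib 3.10.9. The members and the merged regions were checked against bedtools 2.31.1, with 0 differences, and the code was tested on simulated data. Distances were taken to the nearest region held by a ligand list. Sites were named by rule: the first 2 of each class along the chromosomes, the 3 nearest to and farthest from a ligand region, and the 5 windows of 100 kb with the most members, ties in genome order. The members, lists and alternatives were chosen with earlier results of these data known. Comparisons by sequence and by gene needed mm9 references and were not made. Peaks carry no score, so a stricter threshold could not be tried.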

Additional observations from a re-analysis of the deposited data

How the results depend on the processing

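The number of vehicle-only regions stayed within 1.5 times of 1598 with an overlap of at least 100 bp, peaks merged up to 500 bp apart, any of the 4 ligand lists left out, ligand lists of the same genotype only, peaks counted in place of regions, or chromosomes 1 to 19 and X only, and ran from 1148 to 2034. With peaks up to 1 kb apart merged it fell to 1039, since neighbours of ligand regions then join them. Merging at 500 bp left 201 regions of WT Veh alone and 60 of both lists, and at 1 kb 173 and 57; the splits at 100 bp, 200 bp and 1 kb were added after seeing the data. With ligand lists of the same genotype only, regions of WT Veh alone rose from 304 to 547. Regions of Af2KI Veh alone, 1198, ranged from 809 to 1447 and were the largest class in each setting for which this split was computed, that is all but the count of peaks and the restriction to chromosomes 1 to 19 and X. The share near a ligand region, 65.6% at 10 kb, was by construction 34.6% at 1 kb and 93.1% at 50 kb, and 62.3% without WT ICI and 61.5% without Af2KI ICI. Members in shared windows were, by construction, 8.51% at 50 kb and 44.7% at 500 kb. The share on the X chromosome, 3.38%, was 3.64% among members over 1 kb from a ligand region, an alternative added after seeing the data. Alternatives on sequence, gene starts and peak scores were not run. No paired analysis was possible because each group has 1 library.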
